A study of Mus musculus with 12 samples.

Results

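Glutathione and antioxidant enzyme genes were followed in lung RNA from 12 wild-type male C57Bl/6J mice at 3, 6, 12 and 24 months of age. The protein-coding glutathione S-transferases of the alpha, kappa, mu, omega, pi and theta classes (Gst), the glutathione peroxidases (Gpx), the peroxiredoxins (Prdx) and 18 further genes of glutathione synthesis, superoxide and peroxide removal, the thioredoxin system and the NRF2 pathway were taken by their symbols. These were 53 of the 35275 genes in the deposited table. Each age had 3 mice, each analysed on its own, and each mouse gave 1 library of poly(A) RNA from minced lung. No transgene, deletion or agent was given to any group. Age was the only labelled difference between the groups, and the labels give no litter, batch or date.

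Glutathione is a tripeptide that carries reducing power in the cell. Glutamate-cysteine ligase and glutathione synthetase make it, peroxidases and transferases spend it on peroxides and on reactive foreign compounds, and glutathione reductase returns it to the reduced form with NADPH. Superoxide dismutases turn superoxide into hydrogen peroxide, which catalase, glutathione peroxidases and peroxiredoxins remove, and thioredoxins with their reductases keep the peroxiredoxins reduced. The transcription factor NRF2 (gene Nfe2l2) drives many of these genes through the antioxidant response element and is held down by KEAP1. The lung meets more oxygen and inhaled oxidants than most organs, and its club cells, alveolar type 2 cells and macrophages are known for high levels of these enzymes.

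The element that NRF2 binds was looked for in the promoters, since many of the members are known as NRF2 targets. RefSeq promoters of build GRCm38.p6, which is mm10, were found for 45 of the 53 members. The core TGACNNNGC was searched on both strands over the 250 bases before each start. It was present in 9 of the 45 matched members (20%), against 11.5% of all 27025 genes of the promoter table. The matches are shown with 20 bases on either side where the window allows, on the strand of the gene, with the core in capitals. Every RefSeq start of a gene was searched. The Gstm7, G6pdx, Prdx1, Gstm5 and Sod1 matches belong to starts that lie inside the gene as the deposited table places it. The Gstm7 promoter that ends at the table's own start holds no match. Bases just after the Nfe2l2 start were not found near the start of a GENCODE M21 transcript of that gene. In Gclm, Prdx1, Sod1, G6pdx and Txnrd1 the core lies on the other strand and reads in reverse complement. Gclm, Prdx1 and Gsta3 are shown because the direction of their change with age depended on the correction described below.
Gclm, chr3:122245403-122245451, plus strand, 134 bases before the start: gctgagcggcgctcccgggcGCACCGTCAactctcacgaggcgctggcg
Prdx1, chr4:116685446-116685494, plus strand, 133 bases before the start: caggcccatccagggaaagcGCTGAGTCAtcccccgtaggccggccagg
Gsta3, chr1:21240444-21240492, plus strand, 121 bases before the start: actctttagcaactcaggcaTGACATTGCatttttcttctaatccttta
Sod1, chr16:90220686-90220734, plus strand, 56 bases before the start: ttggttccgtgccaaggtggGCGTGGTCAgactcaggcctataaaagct
G6pdx, chrX:74428909-74428957, minus strand, 57 bases before the start: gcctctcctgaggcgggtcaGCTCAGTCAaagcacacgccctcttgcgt
Txnrd1, chr10:82859094-82859142, plus strand, 92 bases before the start: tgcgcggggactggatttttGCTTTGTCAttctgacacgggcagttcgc
Gstm5, chr3:107895792-107895840, plus strand, 42 bases before the start: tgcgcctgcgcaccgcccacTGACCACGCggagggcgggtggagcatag
Gstm7, chr3:107931715-107931763, minus strand, 129 bases before the start: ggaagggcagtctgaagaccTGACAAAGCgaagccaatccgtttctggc
Nfe2l2, chr2:75704875-75704913, minus strand, 240 bases before the start: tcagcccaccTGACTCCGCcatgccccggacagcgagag
A match describes the letters in the window, and its absence from the other matched members says only that the core is not in those 250 bases.

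Gstp1 and Gstp2, the pi class transferases, lie next to each other on chromosome 19 and had the largest rises among the members at 24 against 3 months, both in the uncorrected fit and in the corrected one described below. Their promoters are shown because of this shared pattern, with the AP-1 site TGAGTCA in capitals, a motif chosen after these sequences were read. In both it is followed by gc, and TGAGTCAGC differs from the NRF2 core searched above only by a G for the C. That search therefore did not count it, and which factor binds it was not tested. Both are on the minus strand.
Gstp1, chr19:4037913-4038162: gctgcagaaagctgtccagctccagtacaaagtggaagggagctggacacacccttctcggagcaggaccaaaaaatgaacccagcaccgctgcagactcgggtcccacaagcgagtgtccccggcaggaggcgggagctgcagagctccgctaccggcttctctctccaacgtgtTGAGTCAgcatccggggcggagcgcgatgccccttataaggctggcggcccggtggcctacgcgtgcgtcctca
Gstp2, chr19:4042222-4042471: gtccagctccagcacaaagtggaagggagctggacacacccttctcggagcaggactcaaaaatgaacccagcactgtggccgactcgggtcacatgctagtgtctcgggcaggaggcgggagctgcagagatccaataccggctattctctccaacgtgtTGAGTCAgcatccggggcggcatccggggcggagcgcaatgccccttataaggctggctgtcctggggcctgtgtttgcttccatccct
The windows were identical at 209 of 265 aligned positions (78.9%). TGAGTCA, searched on both strands, was in the window of 5 of the 45 matched members (Gstp1, Gstp2, Gstm5, Prdx1 and Srxn1), or 11.1%, against 5.16% of all genes in the promoter table. Gstp1 and Gstp2 supplied the motif and are counted in that 11.1%, so it cannot be read as an enrichment. In Prdx1 the motif overlaps the NRF2 core.

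Reads assigned to genes numbered 14720869 to 21244361 per library, and the 24-month mice (14720869 to 17950382) lay within the range of the younger ones or just under it. The 24-month libraries stood apart. Weighting each gene by its reads, mean GC content came to 54.3, 54.5 and 55.9% at 24 months and 50.5 to 51.8% in the other 9 libraries, and 17533 to 18513 genes had a read at 24 months against 19539 to 20625 in the others. Mitochondrially encoded genes took 0.629, 0.596 and 0.443% of reads at 24 months and 1.65 to 3.12% in the others. Of the variance in fold change over all genes, 70.6% was taken up by a smooth on GC content and length at 24 against 3 months, 30.8% at 12 against 3 and 10.6% at 6 against 3. Most calls and fold changes are therefore given without and with a correction that removes such a smooth from every library ("corrected" below). The smooth keeps each library's mean deviation, so the correction also shifts all genes of a library together. At 24 against 3 months the median over all genes was -0.29 without the correction and 0.01 with it. With a smooth centred on each library, which leaves that shift out, it was -0.33. The age and this composition cannot be told apart within the 24-month libraries, since no 24-month library lacks the shift. The values below are TMM-scaled CPM, which is reads relative to the scaled library total. Fold changes are log2 values ± SE, with 3 mice per age. The SE was taken from the fold change and its F statistic, whose spread is fitted over all 12 libraries. Adjusted p comes from edgeR's quasi-likelihood test over 16042 genes, with calls at 0.05. In bulk tissue, fewer cells of a type and less RNA per cell cannot be told apart.

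Of the 53 members, 49 held enough reads to be tested. Gpx5 and Gpx6, peroxidases known from epididymis and olfactory tissue, had 0 reads in all 12 libraries, where 3 reads would be 0.141 to 0.204 CPM without TMM. Prdx6b had 1 read in all and Gstt4 had 0 to 5 reads per library. The other members spanned a wide range of levels. By FPKM, which accounts for gene length, the highest means over the 12 libraries were those of Gpx3 (1164), Prdx6 (858), Gstm1 (685), Sod1 (639), Gpx4 (473) and Gpx1 (372), and the lowest tested means were Gsto2 (1.21), Gstm3 (0.692) and Gsta1 (0.639). The subunits of glutamate-cysteine ligase stood lower, with 41.1 FPKM for Gclc and 9.32 FPKM for Gclm.

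Together the members took a larger share of the reads at older ages. They held 0.844, 0.714 and 0.749% of gene reads in the 3-month mice, 0.789, 0.849 and 0.815% at 6 months, 1.03, 1.1 and 1.02% at 12 months, and 1.33, 1.26 and 1.26% at 24 months. The 24-month and 12-month mice did not overlap the younger ages or each other. At 24 months glutathione peroxidases held the most reads of the enzyme groups, with 0.477, 0.453 and 0.498% of reads at 24 months against 0.214, 0.177 and 0.169% at 3 months. Peroxiredoxins held 0.37, 0.36 and 0.257% at 24 months against 0.233, 0.188 and 0.223% at 3 months, where each mouse had more reads on them than on glutathione peroxidases. Glutathione transferases held 0.28, 0.256 and 0.293% at 24 months against 0.171, 0.135 and 0.148% at 3 months. The summed share of the glutathione synthesis and recycling genes went the other way, with 0.0196, 0.0188 and 0.00869% at 24 months against 0.0368, 0.0398 and 0.0398% at 3 months. Its genes were divided: without the correction Gclc and Gclm were called lower and Gss and Gsr higher. The shares above are uncorrected sums over genes of unequal level and were not tested.

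**Figure D1:**
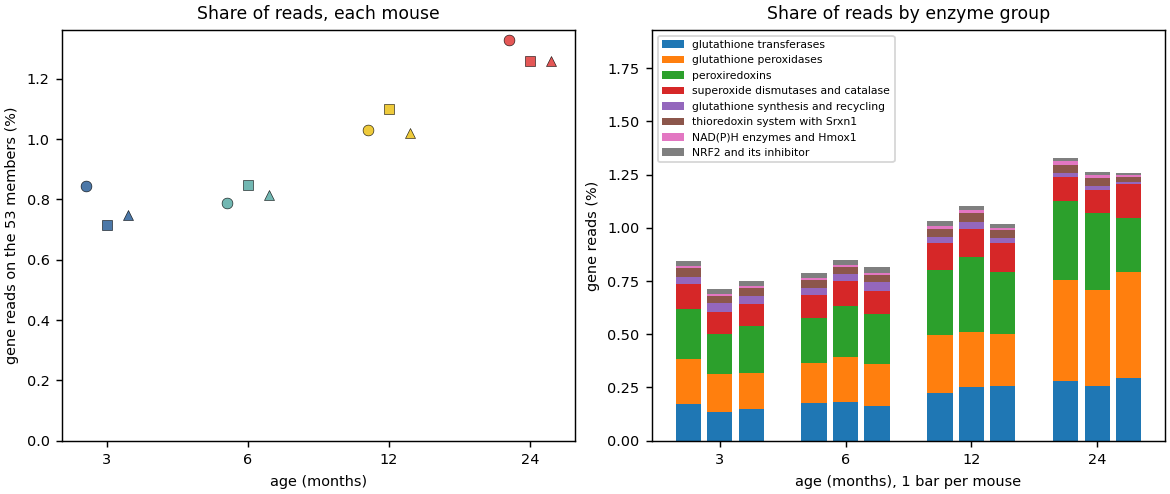
Percent of gene reads on the 53 members in each mouse by age in months (left; marker shape is the mouse number) and the same share split by enzyme group, 1 bar per mouse (right). The 24-month mice lie at 1.26 to 1.33% and the 3-month mice at 0.714 to 0.844%.

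Between 3 and 24 months most tested members changed, and more of them rose than fell. Of 49 members, 30 rose and 15 fell at 24 against 3 months, with a median log2 fold change of 1.10. Over all genes tested, 38.2% rose and 44.6% fell, with a median of -0.29. With the correction, 30 members rose and 8 fell (median 0.64), against 30.0% and 26.5% of all genes (median 0.01). The scaling of the 24-month libraries also differed, with TMM factors of 0.826, 0.767 and 0.521 against 1.15 to 1.2 at 3 months. On library totals without TMM, an alternative chosen after seeing the data, 20 members rose and 16 fell (median 0.34), against 26.4% and 53.3% of all genes (median -1.0). A correction centred on each library, also chosen after seeing the data, gave 22 members higher and 12 lower (median 0.29), against 18.0% and 42.0% of all genes (median -0.33). The members' median was above that of all genes under each of these 4 scalings, which is a description and not a test.

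The 45 members called without the correction split by it. With the correction, 23 rose in both and 6 fell in both, 10 were no longer called, and 6 were called in opposite directions. Nqo1, Gclm, Gsta3, Prdx1 and Prdx3 were lower without it and higher with it, and Srxn1 was higher without it and lower with it. Sod2 and Txnrd1 were called higher and Gpx7 lower only with it. Across the 49 members the uncorrected fold change followed gene GC content (Pearson r 0.77), over points that share the same 12 libraries. The corrected value (r 0.11) is near 0 by construction, since the correction removes a smooth on GC content.

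**Figure D2:**
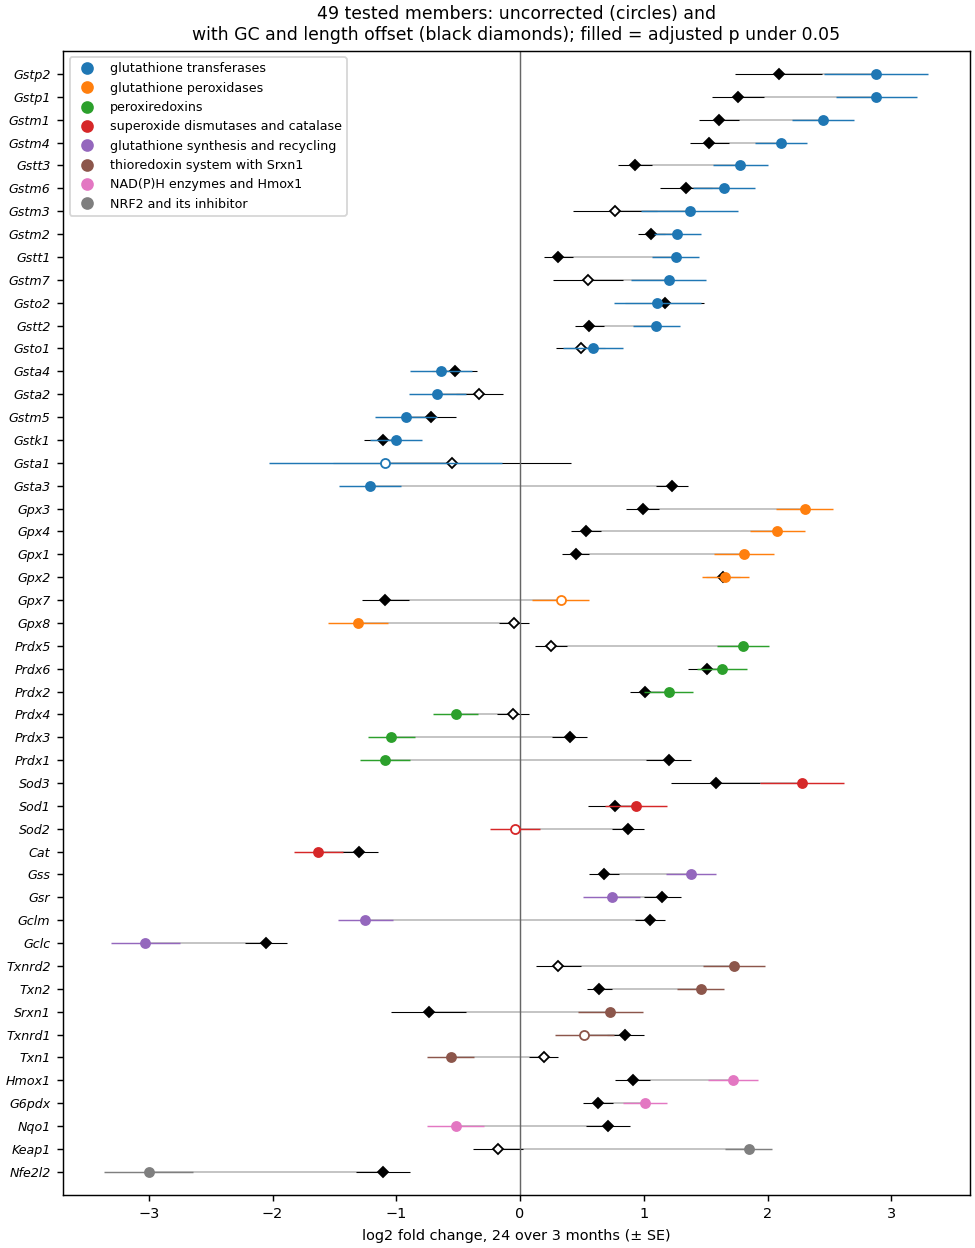
Log2 fold change of the 49 tested members at 24 over 3 months, uncorrected (coloured circles, by enzyme group) and corrected for GC content and gene length (black diamonds), with SE bars and filled symbols for an adjusted p under 0.05. Gstp2 and Gstp1 lie at 2.88 and Gclc at -3.03 without the correction, and Gclm, Prdx1 and Gsta3 cross 0 with it.

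**Figure D3:**
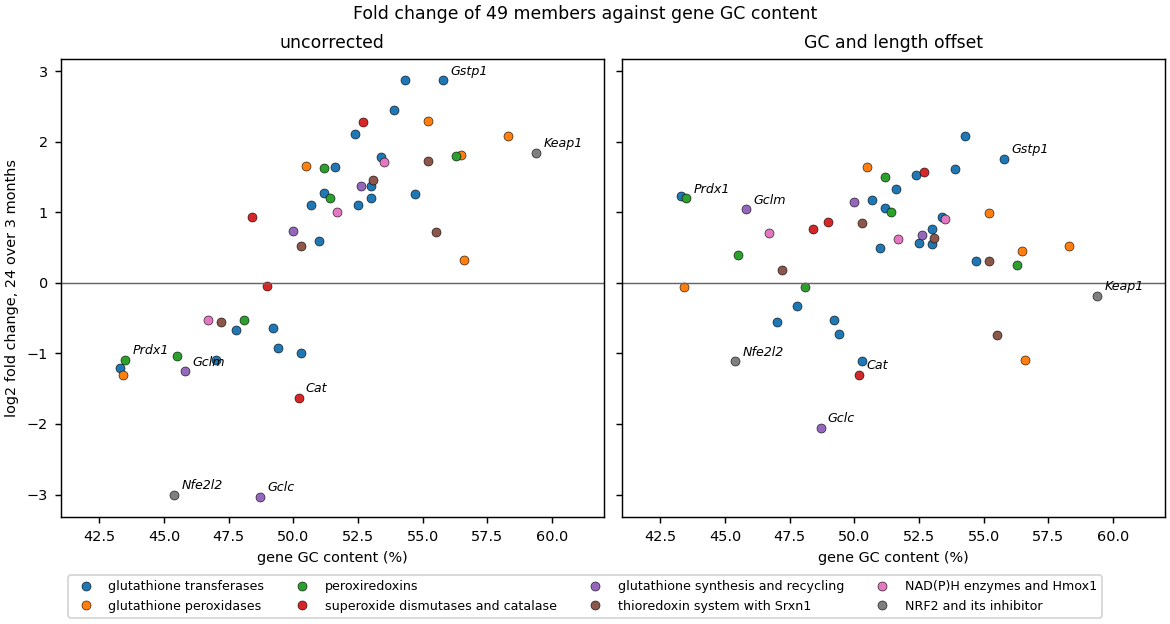
Log2 fold change at 24 over 3 months of the 49 tested members against gene GC content in percent, uncorrected (left) and corrected (right), coloured by enzyme group. Points rise with GC content on the left (r 0.77) and not on the right (r 0.11), as the correction's construction sets.

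In glutathione synthesis, the catalytic subunit of glutamate-cysteine ligase was much lower in old lungs while its partner subunit and the later enzymes were not uniformly so. Gclc (chr9:77754535-77794485), the rate-limiting enzyme, had 30.9, 25.2 and 13.1 CPM at 24 months, against 164, 196 and 209 CPM at 3 months. Each 24-month mouse was far below each 3-month mouse, the log2 fold change was -3.03 ± 0.28 (adjusted p = 2.2e-07), and the correction left it at -2.05 ± 0.17 (adjusted p = 4.1e-07). Gclc fell in every fit that left out 1 mouse, between -3.34 and -2.75. Gclm (chr3:122245557-122269984), the modifier subunit that makes the ligase more efficient, had 26.6, 23.7 and 14.8 CPM at 24 months, against 53, 50.8 and 51.3 CPM at 3 months. Its log2 fold change was -1.25 ± 0.22 without the correction and 1.05 ± 0.12 with it, so its direction rests on the correction. Gss (chr2:155563181-155592810), the synthetase that adds glycine, rose, with 65.8, 61.3 and 49.9 CPM at 24 months and 24.4, 20.3 and 23.2 CPM at 3 months (1.38 ± 0.20; corrected 0.68 ± 0.12). Gsr (chr8:33652523-33698163), the reductase that regenerates glutathione, had 114, 135 and 89.1 CPM at 24 months and 76.7, 63.5 and 62.8 CPM at 3 months. Gsr rose by a log2 value of 0.74 ± 0.23 (adjusted p = 0.0087) and by 1.15 ± 0.15 with the correction, though on library totals the value was 0.04 and was not called.

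Glutathione transferases join glutathione to reactive compounds. Of the 19 tested, 13 rose and 5 fell without the correction (38.2% and 44.6% of all genes), and 11 rose and 3 fell with it (30.0% and 26.5%). On library totals 8 were higher and 5 lower (26.4% and 53.3% of all genes), and with the centred correction 9 were higher and 4 lower (18.0% and 42.0%). Gstp1 (chr19:4035407-4037921) had 362, 401 and 983 CPM at 24 months, against 98.1, 66.2 and 72.8 CPM at 3 months. Gstp2 (chr19:4040285-4042236), its close paralogue, had 13.3, 12.3 and 41.1 CPM at 24 months and 3.52, 2.99 and 2.42 CPM at 3 months. Both rose by 2.88 (SE 0.33 for Gstp1 and 0.42 for Gstp2; corrected 1.76 and 2.09), and 24-month mouse 3 stood above its age mates in both. The labels do not say how reads shared by such copies were counted, so values within the pi, mu and alpha classes are uncertain. The same holds for members that overlap another gene, among them Gclm, Gss, Gpx2, Gpx8, Prdx2, Prdx5, Keap1, Txnrd2, G6pdx, Gsto1 and Gsta3, since they do not say whether counting used strand either. Without 24-month mouse 3 the values were 2.27 for Gstp1 and 2.10 for Gstp2, and both remained called.

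The mu class is encoded in a cluster on chromosome 3. Of its 7 tested genes, 6 rose and 1 fell without the correction (38.2% and 44.6% of all genes). Gstm1 had 1863, 1881 and 3466 CPM at 24 months, against 488, 396 and 436 CPM at 3 months (2.45 ± 0.25; corrected 1.61 ± 0.16). Gstm4 had 33, 35.7 and 50.5 CPM at 24 months and 10.8, 8.09 and 8.57 CPM at 3 months (2.11 ± 0.21; corrected 1.53 ± 0.16). Gstm2 had 405, 355 and 345 CPM at 24 months and 179, 133 and 146 CPM at 3 months (1.27 ± 0.19; corrected 1.06 ± 0.11). The 24-month mice lay above all 3-month mice in each of these genes, which the rule that picked Gstm4 required. Gstm5 was the exception in the cluster, at -0.92 ± 0.25, and fell with the correction too (-0.72 ± 0.20), a call kept in 3 of the 6 fits that left out 1 mouse. Gstm3 and Gstm7, called at 1.37 and 1.20 without the correction, were not called with it.

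In the alpha class the result rested on the correction. Gsta2, Gsta3 and Gsta4 were called lower without it, and Gsta1, with 0 to 23 reads per library, was not called. With it Gsta3 was called higher, Gsta4 lower, and Gsta2 was not called (-0.33 ± 0.19, against -0.67 ± 0.23 without it). Gsta3 (chr1:21240589-21265661) had 109, 96.3 and 53.5 CPM at 24 months, against 217, 173 and 209 CPM at 3 months, a log2 value of -1.21 ± 0.25, and of 1.23 ± 0.13 with the correction. Gsta4, which acts on the lipid peroxidation product 4-hydroxynonenal, was at -0.64 ± 0.25 and at -0.53 ± 0.18 with the correction. The corrected call was kept in 2 of the 6 fits that left out 1 mouse, with values up to -0.21, and correcting for GC content alone gave 0.08. Gstk1, a transferase of mitochondria and peroxisomes, also fell in both, at -1.0 ± 0.21 and -1.11 ± 0.15 with the correction. Of the omega class, Gsto1, a glutathione-dependent reductase, had 229, 209 and 302 CPM at 24 months and 193, 130 and 169 CPM at 3 months. Its value of 0.59 ± 0.24 (adjusted p = 0.03) lost its call once corrected (0.49 ± 0.20, adjusted p = 0.052) and was -0.18 on library totals. The theta class genes Gstt1, Gstt2 and Gstt3 rose by 1.26, 1.10 and 1.78, and by 0.31, 0.56 and 0.93 with the correction, where the call of Gstt1 was kept in 2 of the 6 fits that left out 1 mouse.

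Glutathione peroxidases, selenoproteins in part, reduce peroxides with glutathione. Of the 6 tested, 4 rose and 1 fell without the correction (38.2% and 44.6% of all genes). With it 4 rose and 1 fell as well (30.0% and 26.5%). The gene that fell was Gpx8 without it and Gpx7 with it. With the centred correction 2 were higher and 2 lower (18.0% and 42.0%). Gpx3 (chr11:54902453-54910377), the secreted form, was the most abundant member by mean FPKM, while Prdx6 was higher by mean CPM over the 12 libraries. Gpx3 had 4092, 4027 and 6918 CPM at 24 months, against 1151, 974 and 928 CPM at 3 months. The fold change was 2.30 ± 0.23 (adjusted p = 4.4e-07) and 0.99 ± 0.13 with the correction. Gpx4, which reduces lipid peroxides in membranes, had 900, 1026 and 1347 CPM at 24 months and 318, 214 and 243 CPM at 3 months (2.08 ± 0.22; corrected 0.53 ± 0.12). Gpx1, the cytosolic form, had 683, 759 and 1172 CPM at 24 months and 297, 220 and 228 CPM at 3 months (1.81 ± 0.24; corrected 0.45 ± 0.11). Gpx4 and Gpx1 are GC-rich, and with the correction centred on each library they were 0.19 and 0.10 and were not called. Gpx2, the form of epithelia, barely depended on the correction, with 78.4, 75.3 and 89.4 CPM at 24 months against 29, 21.8 and 26.1 CPM at 3 months (1.66 ± 0.19; corrected 1.64 ± 0.14). Gpx8, in the endoplasmic reticulum, had 15.7, 18.2 and 11.8 CPM at 24 months and 44.7, 33.5 and 35.2 CPM at 3 months. Its fold change was -1.31 ± 0.24 without the correction and -0.05 ± 0.12 with it. Gpx7 was 0.33 ± 0.23 without the correction and fell by 1.09 on the log2 scale with it.

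The peroxiredoxins, thiol peroxidases that thioredoxin mostly recharges, were 3 higher and 3 lower without the correction and 4 higher and 0 lower with it. Over all genes 38.2% were higher and 44.6% lower, and 30.0% and 26.5% with the correction. Prdx6 (chr1:161240112-161251219), which uses glutathione and is known from surfactant phospholipid turnover, had 3838, 4018 and 4200 CPM at 24 months, against 1364, 1104 and 1420 CPM at 3 months. Its rise was 1.63 ± 0.20 (adjusted p = 2.6e-06) and 1.51 ± 0.15 with the correction, and the mice of each age were close to each other. Prdx5 had 291, 337 and 383 CPM at 24 months and 119, 79.3 and 91 CPM at 3 months (1.80 ± 0.21), but 0.25 ± 0.13 with the correction, which was not called. Prdx2 had 169, 167 and 157 CPM at 24 months and 91.6, 57.7 and 65.5 CPM at 3 months (1.20 ± 0.20; corrected 1.01 ± 0.12). Prdx1 (chr4:116685544-116700822), whose promoter match is shown above, had 134, 137 and 140 CPM at 24 months and 345, 246 and 287 CPM at 3 months. Its log2 value was -1.09 ± 0.20 without the correction and 1.20 ± 0.18 with it. Prdx3, the mitochondrial form, had 24.2, 22.2 and 23.9 CPM at 24 months and 54.3, 44.6 and 45.9 CPM at 3 months (-1.04 ± 0.19; corrected 0.40 ± 0.14). The direction of both differed between the fits. The corrected call of Prdx1 was kept in 6 of 6 fits that left out 1 mouse and that of Prdx3 in 2 of 6, and with the centred correction Prdx3 was at 0.05. Prdx4 was lower at -0.52 ± 0.18 without the correction and -0.06 with it.

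Superoxide dismutases and catalase did not move together. Sod3 (chr5:52363946-52371405), the extracellular dismutase, had 719, 818 and 2112 CPM at 24 months, against 294, 257 and 201 CPM at 3 months (2.28 ± 0.34, adjusted p = 1.6e-05; corrected 1.58 ± 0.36). All 24-month mice were above all 3-month mice, and 24-month mouse 3 carried much of the mean, with a value of 1.62 without it. Sod1, the cytosolic copper-zinc form, had 432, 435 and 800 CPM at 24 months and 362, 235 and 275 CPM at 3 months (0.94 ± 0.25; corrected 0.77 ± 0.22), and on library totals its 0.12 was not called. Sod2, the mitochondrial manganese form, had 86.1, 73.4 and 62.9 CPM at 24 months and 76.3, 72.7 and 79.9 CPM at 3 months. The ages overlapped and Sod2 was not called (-0.04 ± 0.20), whereas the corrected value was 0.87 ± 0.13 (adjusted p = 6.2e-05). Cat (chr2:103453849-103485160), the peroxisomal catalase, fell, with 124, 89.6 and 77.8 CPM at 24 months against 268, 310 and 321 CPM at 3 months (-1.63 ± 0.20; corrected -1.30 ± 0.15).

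In the thioredoxin system, 3 of the 5 tested members rose and 1 fell without the correction (38.2% and 44.6% of all genes). With it 2 rose and 1 fell (30.0% and 26.5%). Txn2, the mitochondrial thioredoxin, had 148, 146 and 160 CPM at 24 months, against 64.4, 48.2 and 52.5 CPM at 3 months (1.46 ± 0.19; corrected 0.64 ± 0.10). Txn1, the cytosolic form, had 83.9, 82.9 and 81.9 CPM at 24 months and 144, 107 and 116 CPM at 3 months (-0.56 ± 0.19; corrected 0.19 ± 0.12, not called). Txnrd1, the cytosolic reductase and an NRF2 target, had 151, 149 and 115 CPM at 24 months and 96.7, 95.2 and 97.3 CPM at 3 months. Its 0.52 ± 0.24 was just outside the call (adjusted p = 0.055), and the corrected 0.85 ± 0.15 was called. Srxn1, the sulfiredoxin that repairs overoxidised peroxiredoxins, had 51, 57.1 and 25.6 CPM at 24 months and 29, 29.3 and 22.7 CPM at 3 months. The ages overlapped through 24-month mouse 3, and the value was 0.73 ± 0.26 without the correction and -0.74 ± 0.30 with it. These calls were kept in 2 and 4 of the 6 fits that left out 1 mouse. Txnrd2, the mitochondrial reductase, was called at 1.73 without the correction and not with it (0.31).

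The NADPH and haem enzymes of the set were Hmox1, G6pdx and Nqo1. Hmox1 (chr8:75093591-75100596), which breaks down haem, had 108, 107 and 94.6 CPM at 24 months, against 33.4, 29.7 and 31.1 CPM at 3 months (1.72 ± 0.20; corrected 0.91 ± 0.14). G6pdx, the entry to the pentose phosphate pathway, had 97.9, 96.9 and 71.1 CPM at 24 months and 41.3, 43.7 and 46.9 CPM at 3 months (1.01 ± 0.18; corrected 0.63 ± 0.12), and it was not called on library totals (0.32). Both rose, with no overlap between the ages. Nqo1, the quinone reductase often used to read NRF2 activity, had 7.57, 4.87 and 4.68 CPM at 24 months and 7.9, 8.8 and 7.89 CPM at 3 months. Its -0.52 ± 0.23 (adjusted p = 0.047) was not called by DESeq2, and the corrected value was 0.71 ± 0.18.

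Nfe2l2 (chr2:75675513-75704641), which encodes NRF2, fell strongly, with 29.4, 22.8 and 6.91 CPM at 24 months against 156, 161 and 160 CPM at 3 months. The fold change was -3.00 ± 0.36 (adjusted p = 1.7e-06), and correcting gave -1.11 ± 0.22 (adjusted p = 0.00063). Keap1 (chr9:21229730-21239332), its inhibitor, had 156, 164 and 205 CPM at 24 months and 48.9, 47.8 and 48.5 CPM at 3 months. It was called at 1.85 ± 0.19 without the correction and not with it (-0.18 ± 0.20). With the centred correction Keap1 was called lower, at -0.52, so its direction rests on the scaling. Keap1 had the highest GC content of the members, at 59.4%, and Nfe2l2 one of the lower ones, at 45.4%. Over the 12 libraries, the members most like Gclc by Pearson r of log2 CPM were Nfe2l2 (0.981), Cat (0.976) and Gclm (0.958). All points share the same libraries and their GC shift. Those most like Gstp2 were Gstp1 (0.976), Gstm1 (0.963) and Txnrd2 (0.958).

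**Figure D4:**
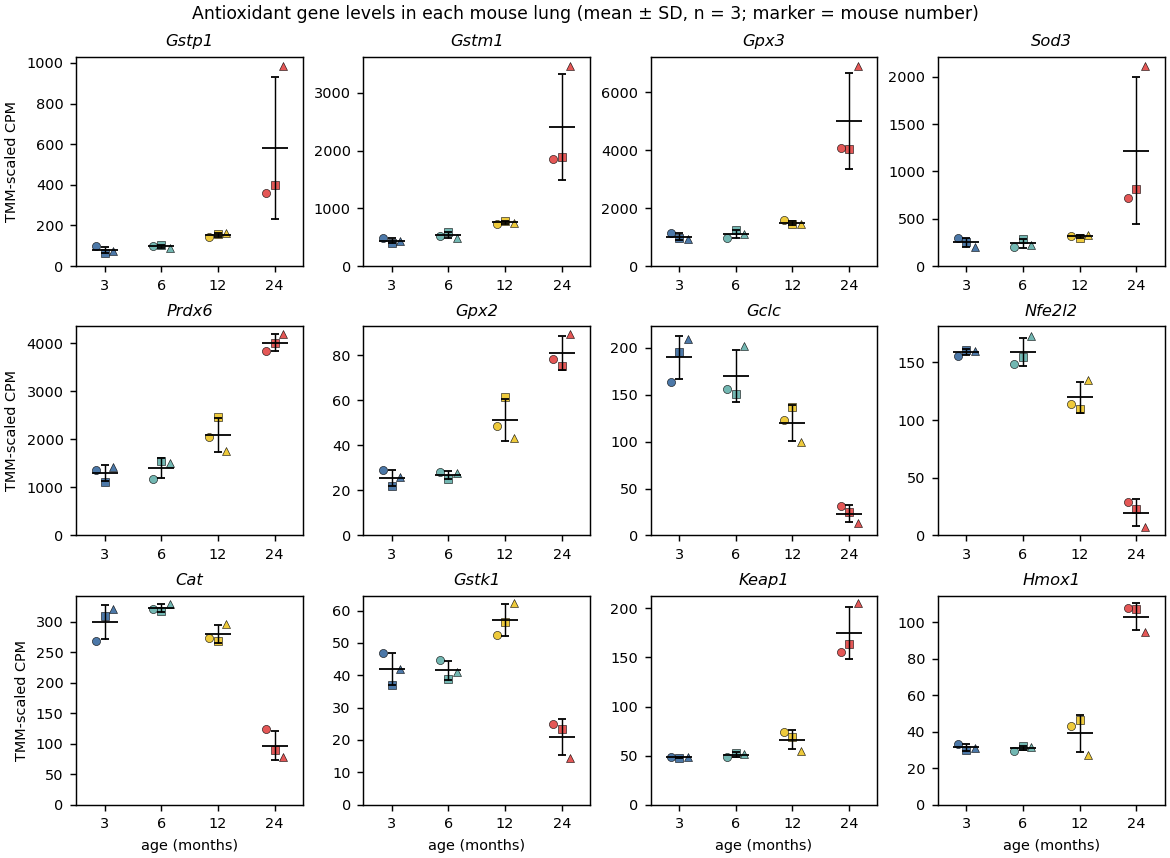
TMM-scaled CPM, uncorrected, of 12 members in each mouse by age in months, with mean and SD of 3 mice and marker shape for the mouse number. Gclc, Nfe2l2 and Cat lie lowest at 24 months, and mouse 3 is the highest 24-month mouse for Gstp1, Gstm1, Gpx3 and Sod3.

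At 12 against 3 months 17 members rose and none fell, with a median log2 fold change of 0.56. Over all genes 6.30% rose and 8.87% fell, with a median of -0.02. Corrected, the count was 18 higher and 0 lower (median 0.39), against 10.7% and 8.82% of all genes (median 0.05). A smooth on GC content and length weighed less on these libraries, and 13 of the 17 members were called in the same direction with and without it. The transferases gave 9 of the 17. Gsto1 had 248, 368 and 394 CPM at 12 months, against 193, 130 and 169 CPM at 3 months (1.04 ± 0.24, adjusted p = 0.014; corrected 0.79 ± 0.20). Gstm6 had 7.92, 7.85 and 8 CPM at 12 months and 5.29, 3.39 and 3.21 CPM at 3 months (0.99 ± 0.25; corrected 0.72 ± 0.20). Gstp1 had 144, 158 and 163 CPM at 12 months and 98.1, 66.2 and 72.8 CPM at 3 months (0.97 ± 0.31; corrected 0.61 ± 0.20). The rule that picked these genes required no overlap between the ages.

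Outside the transferases, the peroxidase Gpx2 had 48.5, 61.6 and 43.4 CPM at 12 months, against 29, 21.8 and 26.1 CPM at 3 months (1.00 ± 0.19, adjusted p = 0.0066; corrected 0.69 ± 0.14). Gpx4, Gss, Prdx5, Prdx6, Prdx1, Sod1 and G6pdx made up the rest, at 0.67 to 0.88, and Sod1 was not called with the correction. Gsta3 and Prdx1, whose direction at 24 months depended on the correction, were higher at 12 months in both fits, at 0.76 and 0.67 without and 1.13 and 0.92 with it. Gclc, at 123, 137 and 99.5 CPM at 12 months against 164, 196 and 209 CPM at 3 months, and Nfe2l2, at 114, 110 and 135 CPM against 156, 161 and 160 CPM, did not pass the test (-0.66 ± 0.26, adjusted p = 0.09, and -0.41 ± 0.33, adjusted p = 0.38). The spread in this fit is shared with the 24-month mice. In a fit of the 3-, 6- and 12-month mice alone, 32 members were called higher and 2 lower (Gclc and Nfe2l2), against 19.0% and 17.1% of all genes. The calls were also fragile to single mice. Without 3-month mouse 2 there were 0, without 3-month mouse 3 and without 12-month mouse 2 there was 1 each, and without 12-month mouse 1 there were 6. With the correction the counts over the fits that left out 1 mouse ranged from 7 to 16. The calls over all genes in these fits are not given, so whether the fragility is particular to the members cannot be told.

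**Figure D5:**
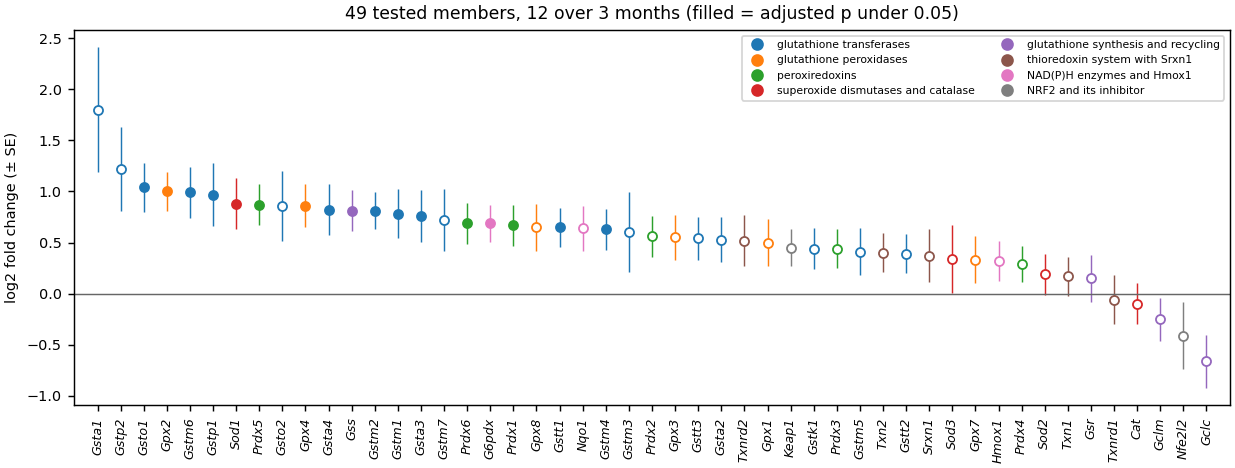
Log2 fold change, uncorrected, of the 49 tested members at 12 over 3 months in order of size, with SE bars, coloured by enzyme group and filled for an adjusted p under 0.05. The 17 filled symbols all lie above 0, and Gclc lies lowest at -0.66.

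At 6 against 3 months no member was called by edgeR, and neither was any gene (0% higher and 0% lower; with the correction 0.00627% higher and 0% lower). DESeq2 called 6 genes and 0 members. At an unadjusted p under 0.05 there were 267 genes and 1 member, Gsta1, which had 9, 14 and 23 reads at 6 months against 9, 1 and 7 reads at 3 months. Member fold changes lay between -0.16 and 1.51, with a median of 0.11.

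At 24 against 12 months 24 members rose and 16 fell, against 37.3% and 42.5% of all genes, and with the correction 20 rose and 10 fell, against 21.4% and 21.0%. The balance turned under the scalings added after seeing the data, where all genes moved down as well. With the centred correction 13 members were higher and 18 lower, against 1946 and 5850 of all 15949 genes. On library totals 12 members were higher and 20 lower. The members' medians were -0.05 with the centred correction and -0.13 on library totals, against -0.30 and -0.78 over all genes. This comparison shares the 24-month mice with that against 3 months. Sod3 had 719, 818 and 2112 CPM at 24 months, against 322, 298 and 329 CPM at 12 months (1.94 ± 0.34; corrected 1.20 ± 0.36). Gstp1 (1.91 ± 0.32; corrected 1.15), Gpx3 (1.75 ± 0.23; corrected 0.72) and Gstm1 (1.67 ± 0.24; corrected 1.07) followed. Gsta1, at 0.165, 0 and 0.234 CPM at 24 months and 0.562, 0.884 and 1.34 CPM at 12 months, fell without the correction (-2.89 ± 0.81) and was not called with it. Nfe2l2 was -2.59 and -0.92 with the correction, and Gclc -2.37 and -1.59, all called. Gsta3 had 109, 96.3 and 53.5 CPM at 24 months and 288, 320 and 410 CPM at 12 months (-1.97 ± 0.25), but 0.10 ± 0.13 with the correction.

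Genes around the members were read from lists that exclude them. At 24 against 3 months 38.2% of all genes rose and 44.6% fell, and 30.0% and 26.5% with the correction. Of 31 other genes of glutathione handling, 14 rose and 13 fell at 24 against 3 months (median 0.01, against -0.29 over all genes), and 14 and 2 with the correction (median 0.44, against 0.01). The highest folds were those of 3 genes. Oplah, the 5-oxoprolinase, was at 2.71 ± 0.43 (corrected 0.44, not called), Ggt6 at 2.67 ± 0.27 (corrected 0.78 ± 0.20) and Ggt1, a transpeptidase that splits extracellular glutathione, at 2.28 ± 0.28 (corrected 0.57 ± 0.19). The lowest were Hpgds (-2.67), Gstcd (-2.37) and Glrx3 (-1.43), of which Gstcd fell with the correction too (-0.66 ± 0.22). Of 16 genes of NADPH supply, 10 rose and 5 fell (median 0.78), and 9 and 0 with the correction (median 0.46). Transketolase, Tkt, had 767, 904 and 1261 CPM at 24 months, against 225, 177 and 194 CPM at 3 months (2.30 ± 0.22; corrected 0.78 ± 0.15), while Idh1 was at -2.29 and -0.19 with the correction.

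NRF2 regulators other than Keap1 were divided, with 6 of 16 higher and 7 lower (median -0.11), and 4 and 4 with the correction (median -0.08). Bach1, a repressor that competes for the antioxidant response element, fell in both, with 9.38, 8.8 and 5.15 CPM at 24 months against 58.4, 82 and 85.4 CPM at 3 months (-3.26 ± 0.24; corrected -1.30 ± 0.12). Cul3, the ubiquitin ligase scaffold that KEAP1 works through, was at -2.98 without and at -0.23 with the correction, where it was not called. Of 22 other genes known as NRF2 targets, 12 rose and 6 fell (median 1.09), and 14 and 1 with the correction (median 0.67). Ferritin light chain, Ftl1, had 6283, 6399 and 13255 CPM at 24 months, against 2008, 1401 and 1499 CPM at 3 months (2.40 ± 0.28; corrected 0.85 ± 0.13). At 12 against 3 months 9 of these 22 rose and 0 fell, against 6.30% and 8.87% of all genes. Ces1g (1.34 ± 0.31), Cbr3 (1.14 ± 0.19) and Akr1b8 (1.10 ± 0.25) led the 9.

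Of 31 thioredoxin fold and selenoprotein genes, 10 rose and 17 fell at 24 against 3 months (median -0.53), and 14 and 9 with the correction (median 0.20). Msrb3, a methionine sulfoxide reductase, fell in both, at -3.88 ± 0.33 and -1.89 ± 0.19 with the correction, and Txndc5, a protein disulfide isomerase, rose in both, at 2.06 ± 0.20 and 1.58 ± 0.15. Of 15 tested oxidant producing enzymes, 8 rose and 4 fell (median 0.79), and 9 and 1 with the correction (median 0.72). Cyba, the membrane subunit p22phox of NADPH oxidases, had 309, 421 and 945 CPM at 24 months, against 81.2, 53.9 and 57 CPM at 3 months (3.12 ± 0.35; corrected 1.58 ± 0.20). The phagocyte oxidase genes Rac2 (2.67; corrected 1.5) and Ncf4 (2.64; corrected 1.49) rose with it, while Nox4, at -3.42 ± 0.36 and -0.71 ± 0.16 with the correction, fell.

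Markers of other lung cell types were summed per mouse, and the sums were not tested. Summed over 11 club cell markers, CPM of all gene reads, without TMM, were 24316 to 51620 at 24 months against 35419 to 48154 at 3 months, where the ages overlapped, and over 11 alveolar type 2 markers 25999 to 36188 against 39650 to 44879. The 9 ciliated cell markers summed to 1514 to 2236 at 24 months against 2302 to 3125 at 3 months, the 10 alveolar macrophage markers to 507 to 557 against 1069 to 1224, and the 8 endothelial markers to 5333 to 7244 against 3822 to 4317. These lists split within themselves at 24 against 3 months. There were 6 club cell markers higher and 4 lower, 5 type 2 markers higher and 4 lower, 2 ciliated markers higher and 7 lower, and 3 macrophage markers higher and 6 lower. Of the endothelial markers, whose sum was higher, 3 were higher and 5 lower (median -0.79). Over all genes 38.2% were higher and 44.6% lower. With the correction, 4 club cell markers were higher and 2 lower, 5 and 3 of type 2, and 1 and 5 of ciliated cells. The macrophage markers stayed at 3 and 6, and the endothelial markers came to 2 and 2 (median -0.04). Over all genes 30.0% were higher and 26.5% lower with it. At 12 against 3 months, beside the 17 members called higher, 6 of 11 club cell markers were higher and 0 lower (median 0.77), 4 of 7 heart muscle markers were higher and 0 lower (median 1.02), and 4 of 8 fat markers were higher and 0 lower (median 1.52). With the correction these lists had 5 higher and 1 lower, 3 and 0, and 2 and 0. Over all genes 6.30% were higher and 8.87% lower, and 10.7% and 8.82% with the correction. Of the type 2 markers 2 of 11 were higher and 0 lower, with sums of 51558 to 55109 at 12 months against 39650 to 44879 at 3 months. Liver markers, of a tissue rich in these enzymes, summed to 0.61 to 5.09 at 24 months against 2.66 to 3.78 at 3 months, with 2 of 9 tested and neither called. The part of these cell types in the members' values was not tested.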

How the data were processed

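Poly(A) RNA of lung was sequenced from 12 mice, 3 per age. Raw read counts per gene and FPKM values were deposited by the authors in 1 table, with the gene length (bases) used for the FPKM. The authors also deposited log2 fold changes and adjusted p-values, which were not used for the results. TopHat, STAR 2.5, HTSeq 0.6.1 and build mm10 are listed in the submitters' processing notes, without roles. The annotation release and the strand setting were not stated.

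Counts were tested with edgeR 4.0.16 (R 4.3.3, filterByExpr, TMM, robust quasi-likelihood fit of all 12 libraries) in 4 comparisons, with Benjamini-Hochberg adjustment over 16042 genes and calls at 0.05. The correction was a joint smooth (mgcv 1.9.3) of log counts on gene GC content and length, fitted per library and entered as an offset, for 15949 genes. The offset held the library's mean deviation as well, which the centred correction took out. GC content came from GENCODE M21 gene models. DESeq2 1.42.0, other scalings and filters, a replicate block and leaving out each mouse were alternatives, and 2 (a centred correction, and library totals without TMM) were added after seeing the data. The fits were tested on simulated data. The labels give same-numbered mice at each age no shared origin, and these were not treated as pairs. With 3 mice per age, p-values rest on the spread between mice of an age, pooled over the 4 ages and moderated across genes. The 0-read limit of 3 reads covers counting error only.

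Members and lists were chosen with earlier results of these data known, and so support no count on their own. Values per mouse are given for the up to 4 most abundant members of each enzyme group by FPKM, the members with the largest called fold changes without overlap between ages (6 each way at 24 against 3 months, 4 in other comparisons), and those whose direction depended on the correction. List genes were named up to 3 each way by fold. Promoters came from RefSeq.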

Additional observations from a re-analysis of the deposited data

How the results depend on the processing

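At 24 against 3 months, members called lower were 5 with a GC content offset, 8 with the GC content and length offset and 8 with that offset and the replicate block, against 15, and 30 were called higher with the block alone. Over all genes 4511 were lower with the GC content offset and 4233 with the GC content and length offset, against 7149. With the block alone 6065 genes were higher, against 6128. Directions that turned with the GC content and length offset were Nqo1 0.71, Keap1 -0.18, Gpx7 -1.09, Gclm 1.05, Gsta3 1.23, Prdx1 1.20, Prdx3 0.40, Sod2 0.87, Srxn1 -0.74 and Txn1 0.19, and with the block added Nqo1 0.71, Keap1 -0.21, Gpx7 -1.10, Gclm 1.05, Gsta3 1.23, Prdx1 1.18, Prdx3 0.40, Sod2 0.87, Srxn1 -0.81 and Txn1 0.19. With the centred offset they were Nqo1 0.36, Keap1 -0.52, Gpx7 -1.44, Gclm 0.71, Gsta3 0.89, Gstt1 -0.04, Prdx1 0.84, Prdx3 0.05, Prdx5 -0.09, Sod2 0.53, Srxn1 -1.07 and Txnrd2 -0.04. With GC content alone they were Nqo1 1.14, Keap1 -0.07, Gpx7 -1.25, Gpx8 1.13, Gclm 0.68, Gsta2 0.62, Gsta3 1.22, Gsta4 0.08, Prdx1 1.40, Prdx3 1.05, Prdx4 0.68, Sod2 0.78, Srxn1 -0.58 and Txn1 1.00. On library totals Gsto1 was -0.18. At 12 against 3 months members called higher were 26 with GC content, 8 on library totals, 9 with the replicate block and 32 without the 24-month libraries, against 17, and those called lower were 1 with DESeq2, GC content, the centred offset or the 6 libraries alone and 2 without the 24-month libraries, against 0. The counts over all genes moved too, with 1957 higher with GC content, 487 on library totals, 602 with the block and 3021 without the 24-month libraries, against 1010. At 24 against 12 months those called higher were 13 with the centred offset and 12 on library totals, against 24, where 18 and 20 were lower, and those called lower were 8 with GC content, 10 with the GC content and length offset and 9 with the block added, against 16. Over all genes 1946 were higher and 5850 lower with the centred offset, against 5976 and 6815. With GC content 3534 genes were lower, and 3357 with the GC content and length offset. Directions turned there for 12 members with the GC content and length offset, 12 with the block added, 15 with GC content, 10 with the centred offset and 5 on library totals, and among those named at these ages Gsta3 was 0.10 with the GC content and length offset, 0.07 with GC content and 0.10 with the block added. The cause was not tested. Leaving out 1 mouse gave 24 to 30 members higher and 13 to 15 lower at 24 against 3 months, 0 to 18 higher at 12 against 3 months, 16 to 25 higher and 16 to 17 lower at 24 against 12 months and 0 at 6 against 3 months. With the GC content and length offset these were 28 to 30 and 5 to 7, 7 to 16, and 16 to 21 and 8 to 10. Counts over all genes in the fits that left out 1 mouse are not given, so these ranges have no background beside them. Same-numbered mice had correlated deviations above 0.1 in 4 of 18 pairs, and 2 of 12 libraries were most like one of their own number.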
